A study of Homo sapiens with 24 samples.

Results

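Transcript levels of 32 genes of the NRF2 antioxidant programme and of the linked NADPH-producing and pentose phosphate enzymes were followed in ES2 and A2780, a pair of human ovarian cancer cell lines. The genes came from a written list of NRF2 pathway genes, and all 32 were found among the 28907 gene symbols of the deposited transcript table. Levels are in TPM, a share of all transcripts that is already corrected for transcript length, summed over the distinct transcripts of each symbol. RNA sequencing gave 24 libraries in 8 groups of 3, and the labels give the genotype as WT for all of them. In each line siVRK1, an siRNA against the nuclear serine/threonine kinase VRK1, was set against the control siRNA siCtrl. Luteolin, a plant flavone, was set against DMSO. The sources used here give neither siRNA sequences nor the dose and hours of luteolin, and each line is a single established line. Whether the 3 libraries of a group are separate cultures is not stated in the labels. The p-values thus reflect the scatter among these libraries alone, which may be technical.

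The siRNA was checked first. VRK1 was at 2.92, 4.08 and 4.20 TPM in the ES2 siVRK1 libraries, against 65.5, 66.2 and 62.2 TPM with siCtrl, and at 11.3, 9.41 and 7.98 TPM in the A2780 siVRK1 libraries, against 54.4, 53.6 and 55.2 TPM with siCtrl. Every library titled siVRK1 thus lay far below its controls, also those whose treatment label reads siVRK2 or siVRK3. VRK2 averaged 22.4 ± 0.349 TPM with siVRK1 and 28.5 ± 1.18 TPM with siCtrl in ES2, and VRK3 15.01 ± 1.32 and 18.0 ± 1.09 TPM (SD, n = 3 each). Libraries of the same group correlated at 0.991 to 0.995 across genes, and 11792 to 12862 genes reached 1 TPM in a library. TPM keeps no sequencing depth, so depth is unknown and no interval for counting error is given. Of 10 ovarian carcinoma markers, 5 or 6 stayed below 1 TPM in all libraries of an ES2 group and 6 or 7 in those of an A2780 group. MUC16, MSLN and FOLR1 were listed at 0 in every ES2 library, and the keratin KRT7 was at 323 to 501 TPM in ES2 and at most 0.0313 TPM in A2780. The leukocyte markers PTPRC and CD3E were below 1 TPM in all 8 groups. CD68, which is not restricted to leukocytes, brought the summed leukocyte list to 71.4 to 79.0 TPM with siVRK1 and 36.0 to 42.2 TPM with siCtrl in ES2.

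NRF2 is a transcription factor that KEAP1, an adaptor of a ubiquitin ligase, marks for degradation in unstressed cells. Oxidants and electrophiles modify KEAP1, NRF2 accumulates, pairs with a small MAF protein such as MAFG and binds antioxidant response elements near its target genes. The targets make and recycle glutathione and thioredoxin, break down heme and quinones, and supply NADPH through the pentose phosphate pathway, malic enzyme and cytosolic isocitrate dehydrogenase.

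Several promoters of the list hold the core letters of the antioxidant response element. The motif TGACNNNGC was searched on both strands in RefSeq promoter windows of build GRCh38.p14, from 250 bases before to 50 bases after an annotated start. A match was present in 11 of the 27 listed genes with a window (40.7%), against 16.1% of 27305 genes. Counted per window, 12 of 35 windows of the listed genes (34.3%) and 13.3% of 35116 windows held it. GSR, PRDX1, AKR1B10, HMOX1 and PRDX6 had no window. These matches are descriptions of sequence and not measured binding sites. Sequence outside the windows was not searched, so a window without a match does not show that a gene lacks the element. The stretches below, 10 of the 15 matches, are shown because genes that hold the motif moved in different directions in the results that follow. The matches of GPX2 and PIR and a second match in KEAP1, ME1 and the first TXNRD1 window are not printed. They run 5′ to 3′ on the gene's strand, and capitals mark the match, which reads GCNNNGTCA where it lies on the opposite strand.
ME1, chr6:83431170-83431198, minus strand: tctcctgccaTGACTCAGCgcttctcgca
GSTP1, chr11:67583736-67583764, plus strand: gccggcgccgTGACTCAGCactggggcgg
GCLM, chr1:93909446-93909474, minus strand: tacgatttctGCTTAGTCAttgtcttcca
TXNRD1, second window, chr12:104286920-104286948, plus strand: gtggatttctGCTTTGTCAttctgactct
TXNRD1, first window, chr12:104215670-104215698, plus strand: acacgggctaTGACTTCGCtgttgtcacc
KEAP1, chr19:10502784-10502812, minus strand: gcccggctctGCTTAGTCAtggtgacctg
PGD, chr1:10398853-10398881, plus strand: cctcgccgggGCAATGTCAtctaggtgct
IDH1, chr2:208255196-208255224, minus strand: cccctctcgcTGACTCCGCccatcccacg
EPHX1, chr1:225825266-225825294, plus strand: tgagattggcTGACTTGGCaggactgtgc
CBR1, chr21:36069855-36069883, plus strand: tgcgggttctGCAAAGTCAggctagctgg
ME1 and GSTP1 held the same 9 letters, and GCLM and KEAP1 shared theirs. The match began at position -137 of ME1, -66 of GSTP1, -34 of GCLM and -31 of KEAP1, counted from the annotated start.

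Before either agent was compared, the listed genes were read in the 6 control libraries of each line (siCtrl and DMSO together). In the ES2 controls the highest levels were those of PRDX1, a peroxiredoxin that reduces hydrogen peroxide, at 1306 ± 152 TPM, and TXN (thioredoxin) at 902 ± 92.5 TPM (SD, n = 6). GSTP1, a glutathione S-transferase, averaged 430.0 ± 14.6 TPM in ES2 siCtrl, below TXNRD1 and TKT there, and 711 ± 6.88 TPM in ES2 DMSO, above both. In the A2780 controls PRDX1 at 1404 ± 50.6 TPM and GSTP1 at 1051 ± 121 TPM led, followed by TXN at 504 ± 65.8 TPM. In ES2 the ranges of TXN, GSTP1 and TXNRD1 lay below that of PRDX1, while GSTP1 at 414 to 716 TPM overlapped TXNRD1 at 511 to 595 TPM. In A2780 NQO1, TKT and PRDX6, at 403, 386 and 377 TPM on average, overlapped one another. GPX2, AKR1B10, AKR1C1 and AKR1C2 stayed below 5 TPM on average in all 8 groups.

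The lines differed in most of these levels, as they did in most of all genes tested. Of 31 genes tested, 16 were higher in ES2 than in A2780 controls and 12 lower, against 34.3% and 49.4% of the 14328 genes tested (83.7% in either direction), by limma with Benjamini-Hochberg adjustment over all genes and a threshold of 0.05. These 16 include AKR1B10, which reached 1 TPM only in the ES2 siCtrl libraries, so that passing the level filter set its direction here and in each comparison below that uses them. Without it 15 of 30 were higher. These 15 still hold CBR1 and AKR1C1, which reached 1 TPM in A2780 only in 1 luteolin library of AKR1C1 (1.07 TPM). Their passing of the level filter thus rested on ES2 libraries, which favors a higher call there. The median of all genes lay at -0.17 on the log2 scale as deposited and at -0.033 after median-of-ratios scaling. All log2 fold changes of TPM + 1 below are therefore given relative to the median of all genes of their comparison, followed by the standard error of the fit, while calls and p-values come from the unshifted fit. CBR1, a carbonyl reductase, had 114, 110.4 and 113 TPM in ES2 siCtrl and 99.4, 92.0 and 104 TPM in ES2 DMSO, but in A2780 it was listed at 0 in all but 1 control library, at 0.145 TPM. TXNRD1, which reduces thioredoxin, averaged 524 ± 11.2 and 567 ± 25.3 TPM in ES2 siCtrl and DMSO, against 257 ± 6.72 and 124 ± 12.1 TPM in those of A2780, a difference of 1.77 ± 0.0429. GCLM, the modifier subunit of the enzyme that limits glutathione synthesis, was also higher in ES2 (1.27 ± 0.0688), as was ME1, the cytosolic malic enzyme (1.08 ± 0.0415). KEAP1 was lower in ES2, with 40.3 ± 1.90 and 33.5 ± 1.88 TPM against 98.8 ± 2.90 and 87.6 ± 4.75 TPM (-1.15 ± 0.0423). GSR, the glutathione reductase, BLVRB, a biliverdin reductase, and PIR, the iron-binding protein pirin, were lower in ES2 by wider margins (-1.83, -1.91 and -2.02), and NQO1 was lower too (-0.83). HMOX1 was at 14.9 ± 1.04 TPM in ES2 siCtrl, against 76.5 ± 6.91 TPM in A2780 siCtrl, and at 17.7 ± 0.839 TPM in ES2 DMSO, against 22.3 ± 1.62 TPM in A2780 DMSO, so its difference over both controls (-1.13) came mostly from the siCtrl libraries. NFE2L2 itself averaged 62.3 ± 2.97 and 38.0 ± 0.356 TPM in ES2 siCtrl and DMSO, against 63.9 ± 0.662 and 48.2 ± 2.09 TPM in those of A2780, and its lower call in ES2 was lost after median-of-ratios scaling (limma adjusted p = 0.411).

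**Figure D1:**
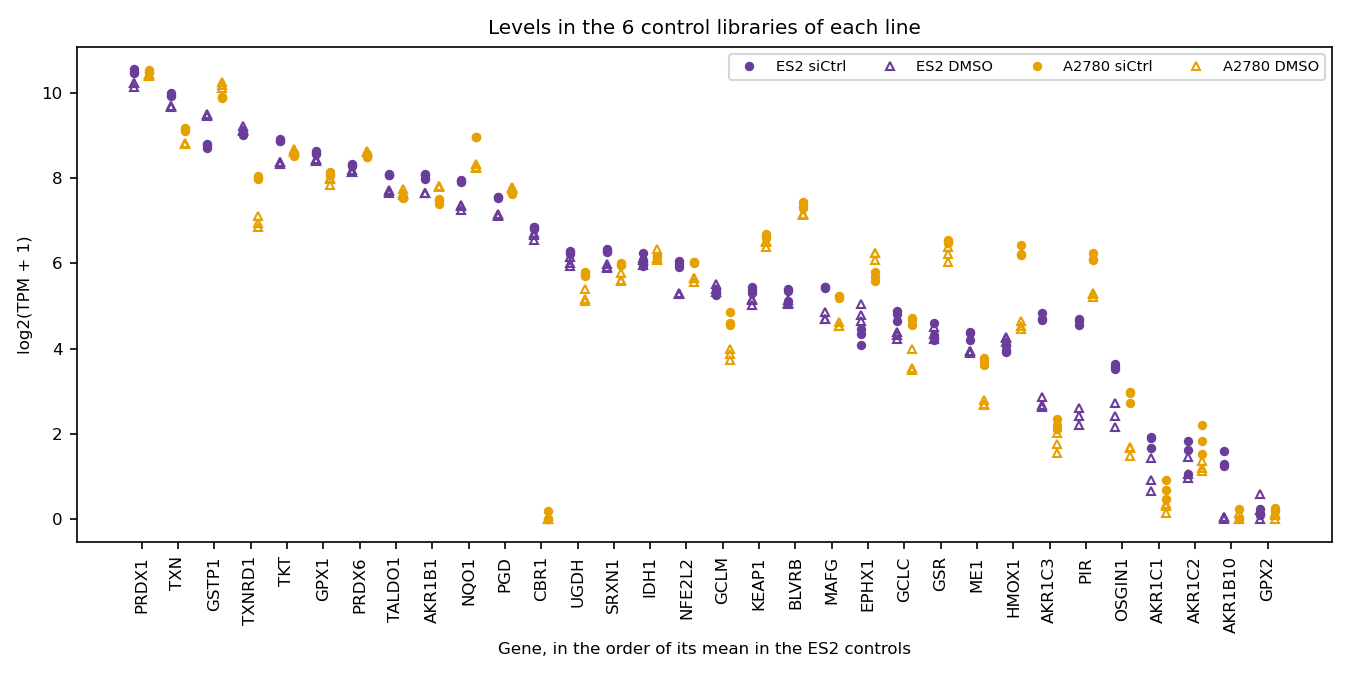
Level of each gene on the log2(TPM + 1) axis in the siCtrl (filled circles) and DMSO (open triangles) libraries of ES2 and A2780, 3 points per group, with genes in the order of their ES2 mean. CBR1 lies near 0 in A2780 and at 92.0 to 114 TPM in ES2, and for HMOX1 in A2780 and AKR1C3 and PIR in ES2 the siCtrl and DMSO points stand clearly apart.

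The siRNA comparison asks how these genes changed with the siRNA against VRK1. In both lines more of them were lower than higher with siVRK1, and HMOX1, the heme oxygenase that breaks down heme, went the other way and was the largest rise of the list in each. In ES2, 19 of 31 tested genes were lower and 6 higher, against 28.0% and 26.8% of 12507 genes (54.8% in either direction). Without AKR1B10 18 of 30 were lower. In A2780, 12 of 28 were lower and 4 higher, against 27.0% and 13.8% of 13012 genes (40.9% in either direction). Median-of-ratios scaling gave 11 lower and 6 higher in A2780, and 2658 lower and 2687 higher of all genes in place of 3519 and 1799. From protein-coding transcripts alone, 15 genes of the list were lower and 5 higher in A2780, beside 3626 and 1830 of all genes. In ES2 these transcripts gave 19 lower and 6 higher, beside 3427 and 3354 of all genes. The median fitted change of the tested genes was -0.25 in ES2 and -0.12 in A2780, beside -0.0022 and -0.077 for all genes. Called lower in both lines were 9 genes, namely NFE2L2, GCLC, TXNRD1, SRXN1, PRDX1, NQO1, ME1, OSGIN1 and PIR, and 3 were called higher in both, GSTP1, HMOX1 and EPHX1. Of the 11304 genes tested in both lines, 15.2% were lower in both and 7.82% higher in both, beside 9 and 3 of 28 here. Marker sums moved with siVRK1 as well. The ovarian carcinoma markers summed to 636 to 675 TPM with siVRK1 and 962 to 986 TPM with siCtrl in ES2, and to 6.75 to 8.23 and 10.7 to 12.4 TPM in A2780. In ES2 the keratins KRT7, KRT18 and KRT8 made up nearly all of this sum, since WT1 and PAX8 reached at most 4.12 and 2.99 TPM. Called lower were 2 of 5 tested in ES2 and 1 of 3 in A2780, and 0 were higher. The 7 fibroblast markers, 3 below 1 TPM with siVRK1 and 5 with siCtrl in ES2, summed to 52.3 to 64.5 TPM with siVRK1 and 82.8 to 98.3 TPM with siCtrl, and in A2780, with LUM below 1 TPM, to 46.6 to 52.2 and 37.2 to 41.0 TPM. Of those tested, 1 of 3 was called lower and 0 higher in ES2, and 3 of 6 higher and 1 lower in A2780. Their part in the results was not tested. In bulk RNA, fewer cells of a kind and less RNA per cell cannot be told apart.

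HMOX1 was at 61.9, 53.9 and 59.0 TPM in ES2 siVRK1, against 16.1, 14.6 and 14.0 TPM in siCtrl, and at 165, 164 and 173 TPM in A2780 siVRK1, against 84.4, 72.8 and 72.1 TPM in siCtrl. In both lines all siVRK1 libraries lay above all siCtrl libraries. The change was 1.90 ± 0.0692 in ES2 (limma adjusted p = 6.01e-10) and 1.20 ± 0.0919 in A2780 (limma adjusted p = 1.97e-06). NQO1, which reduces quinones with NADPH and is a common readout of NRF2 activity, was at 123, 124 and 122 TPM in ES2 siVRK1, against 245, 242 and 239.6 TPM in siCtrl. In A2780 it was at 378, 370.4 and 367 TPM with siVRK1, against 500.3, 498 and 493 TPM with siCtrl. The groups did not overlap in either line, and NQO1 was lower in both, with -0.97 in ES2 and -0.34 in A2780 (limma adjusted p = 2.43e-09 and 3.94e-06). HMOX1 and NQO1 thus moved in opposite directions with siVRK1. BLVRB rose in ES2 to 57.4 ± 2.24 TPM with siVRK1, against 38.3 ± 4.11 TPM with siCtrl (0.58 ± 0.0882), and averaged 158 ± 6.88 and 163 ± 8.04 TPM in A2780, where it did not pass (limma adjusted p = 0.413).

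Among the regulators, NFE2L2 was at 36.3, 38.5 and 40.8 TPM in ES2 siVRK1, against 62.1, 59.4 and 65.3 TPM in siCtrl. All siVRK1 libraries lay below all siCtrl libraries, a change of -0.68 ± 0.0680 (limma adjusted p = 3.55e-06). In A2780 the siVRK1 libraries were at 53.3, 56.5 and 55.4 TPM, against 64.6, 63.3 and 63.9 TPM with siCtrl. That smaller difference was -0.13 ± 0.0508 relative to the all-gene median. The unshifted difference passed as deposited (limma adjusted p = 0.00519) but not after median-of-ratios or quantile scaling (limma adjusted p = 0.119 and 0.182). KEAP1 fell in A2780, to 78.1 ± 5.40 TPM with siVRK1 against 98.8 ± 2.90 TPM with siCtrl (-0.26 ± 0.0620, limma adjusted p = 0.000903), while in ES2 it averaged 39.5 ± 1.61 and 40.3 ± 1.90 TPM and did not pass. MAFG was lower in ES2 siVRK1 (36.6 ± 2.03 against 42.0 ± 0.474 TPM, limma adjusted p = 0.0269). That call was lost without siVRK1 library 3, siVRK1 library a, siCtrl library 2 or siCtrl library 3, with limma adjusted p between 0.0622 and 0.102. Libraries a and b of ES2 siVRK1 share a column name and so carry no number of their own.

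The glutathione genes split. GCLC, the catalytic subunit of glutamate-cysteine ligase, was at 16.5, 17.7 and 21.1 TPM in ES2 siVRK1, against 27.1, 23.9 and 28.6 TPM in siCtrl, and at 18.5, 17.9 and 16.4 TPM in A2780 siVRK1, against 24.3, 25.4 and 22.4 TPM in siCtrl. It was lower in both lines without overlap (-0.50 and -0.35, limma adjusted p = 0.00144 and 0.011). Its partner GCLM was higher in ES2 siVRK1, at 47.7 ± 5.58 against 39.4 ± 2.10 TPM (0.27 ± 0.0789), and averaged 24.8 ± 1.97 and 24.6 ± 2.97 TPM in A2780, where it did not pass. The GCLM call in ES2 was lost without siVRK1 library 3 or siCtrl library 2 (limma adjusted p = 0.0591 and 0.0534). GSTP1 rose in both lines, to 526 ± 7.42 TPM with siVRK1 against 430.0 ± 14.6 TPM with siCtrl in ES2 and to 1056 ± 31.5 against 944 ± 7.09 TPM in A2780 (0.29 and 0.24). GSR rose in ES2 (26.5 ± 1.81 against 19.7 ± 2.98 TPM, 0.41 ± 0.10) and did not pass in A2780 (87.0 ± 4.32 against 89.9 ± 2.62 TPM). GPX1, a glutathione peroxidase, fell in ES2 to 265 ± 4.54 TPM with siVRK1, against 385 ± 11.1 TPM with siCtrl (-0.53 ± 0.0311), and averaged 259 ± 6.09 and 271 ± 6.75 TPM in A2780, where it did not pass. GPX2 was below the level filter in both lines and was not tested.

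Thioredoxin system genes were lower where they passed, apart from PRDX6 in A2780. TXNRD1 was at 436, 444 and 444 TPM in ES2 siVRK1, against 528, 531 and 511 TPM in siCtrl (-0.24 ± 0.0423), and at 229.7, 218 and 204 TPM in A2780 siVRK1, against 264, 257 and 251 TPM in siCtrl (-0.17 ± 0.0701). Its A2780 call was lost without siVRK1 library 3 or siCtrl library 1 (limma adjusted p = 0.0617 and 0.0509). SRXN1, sulfiredoxin, which repairs overoxidised peroxiredoxins, was lower in ES2 (-0.29) and in A2780 (-0.17), in A2780 not after quantile normalization (limma adjusted p = 0.0722). PRDX1 averaged 1168 ± 17.5 TPM with siVRK1 and 1441 ± 41.5 TPM with siCtrl in ES2, and 1222 ± 23.6 and 1448 ± 23.7 TPM in A2780 (-0.30 and -0.17, both called). PRDX6, a peroxiredoxin that uses glutathione, rose in A2780 to 457, 453 and 454 TPM with siVRK1, against 359, 374 and 361 TPM with siCtrl (0.40 ± 0.0319, limma adjusted p = 9.22e-06). In ES2 it was at 297 ± 5.36 TPM with siVRK1 and 315 ± 4.38 TPM with siCtrl, a lower call (limma adjusted p = 0.0361) that was lost without siVRK1 library a or b or siCtrl library 1 or 2, at 0.0798 to 0.123. TXN did not pass in either line.

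Of the NADPH-producing enzymes, ME1 was lower with siVRK1 in both lines, at 12.9, 12.8 and 12.6 TPM in ES2 siVRK1, against 19.6, 17.5 and 20.1 TPM in siCtrl, and at 8.71, 8.16 and 8.58 TPM in A2780 siVRK1, against 12.1, 12.7 and 11.3 TPM in siCtrl. The changes were -0.54 ± 0.0629 and -0.38 ± 0.0771, without overlap. The pentose phosphate genes PGD, 6-phosphogluconate dehydrogenase, and TKT, transketolase, were lower in ES2 (153 ± 7.12 against 187 ± 1.70 TPM and 389 ± 17.0 against 469.6 ± 9.23 TPM). In A2780 neither passed as deposited, and PGD at 212 ± 7.35 against 199 ± 4.42 TPM became a higher call after median-of-ratios scaling (limma adjusted p = 0.00315). TALDO1, transaldolase, passed in neither line (-0.063 in ES2 and 0.11 in A2780). IDH1, cytosolic isocitrate dehydrogenase, was lower in A2780 (58.7 ± 0.882 against 70.2 ± 0.871 TPM) and did not pass in ES2 (69.7 ± 1.14 against 67.4 ± 7.18 TPM).

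The largest falls of the list in ES2 were among the aldo-keto reductases and PIR. AKR1C3, a ketosteroid reductase, was at 6.57, 6.59 and 5.29 TPM in ES2 siVRK1, against 27.5, 25.0 and 24.5 TPM in siCtrl, a change of -1.90 ± 0.10 (limma adjusted p = 1.23e-08). The groups stood far apart, whereas in A2780 the gene was at 2.65, 3.08 and 2.16 TPM with siVRK1, against 3.62, 4.06 and 3.32 TPM with siCtrl, and did not pass (limma adjusted p = 0.122). The AKR1C genes share long identical stretches that kallisto has to divide reads between, so their split is uncertain. Summed over AKR1C1, AKR1C2 and AKR1C3, the fitted change was -1.68 ± 0.10 in ES2 (limma adjusted p = 3.17e-08) and -0.19 ± 0.25 in A2780 (limma adjusted p = 0.583). AKR1B10 was at 0.0802, 0.0389 and 0.170 TPM with siVRK1, against 2.04, 1.45 and 1.35 TPM with siCtrl, through which alone it passed the level filter. AKR1C1 was lower in ES2 too (0.720 ± 0.274 against 2.58 ± 0.339 TPM) and was not tested in A2780, and AKR1C2 did not pass in either line (-0.040 ± 0.26 and 0.14 ± 0.27). PIR was at 10.2, 8.34 and 8.79 TPM in ES2 siVRK1, against 22.5, 23.9 and 24.8 TPM in siCtrl, and at 41.3, 39.0 and 41.9 TPM in A2780 siVRK1, against 74.8, 66.2 and 67.6 TPM in siCtrl. It fell in both lines without overlap (-1.29 ± 0.11 and -0.68 ± 0.0717). OSGIN1, a growth inhibitor induced by oxidative stress, was also lower in both (6.37 ± 0.575 against 11.0 ± 0.510 TPM in ES2 and 3.46 ± 1.06 against 6.47 ± 0.725 TPM in A2780). EPHX1, microsomal epoxide hydrolase, rose in both (0.54 and 0.39), AKR1B1 and CBR1 fell in ES2 (-0.31 and -0.24), and UGDH, which makes UDP-glucuronate, fell in A2780 (-0.25).

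**Figure D2:**
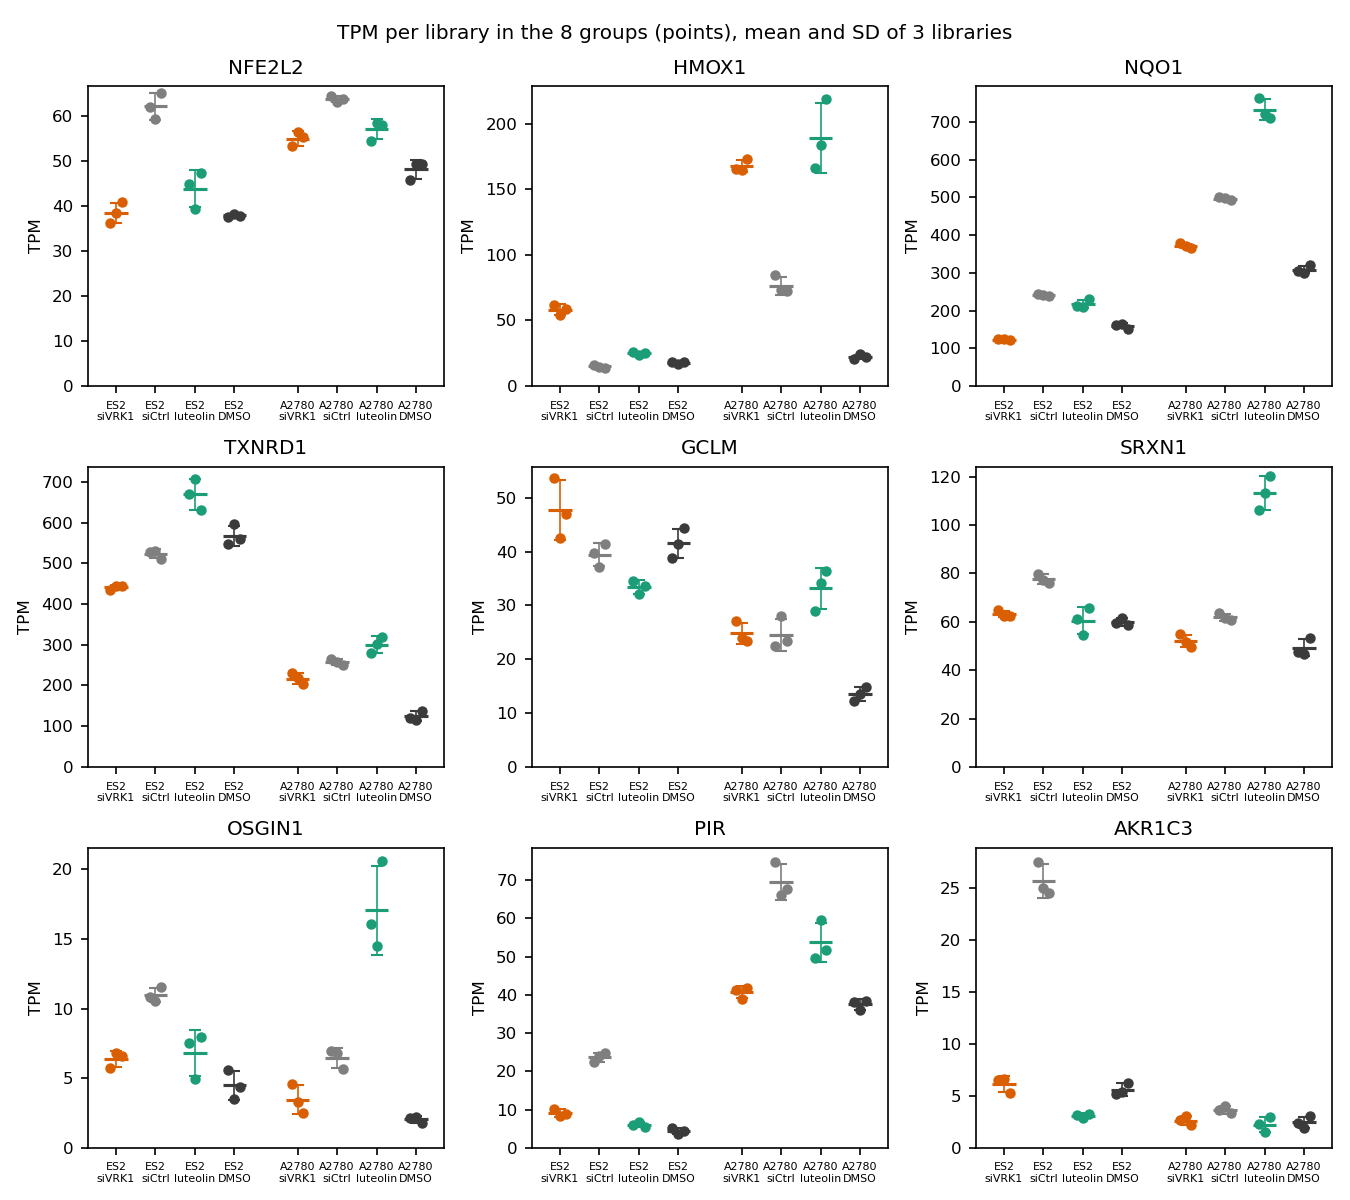
TPM of 9 genes in each of the 24 libraries (points, 3 per group), with the mean and SD of each group; siVRK1 stands left of siCtrl and luteolin left of DMSO. HMOX1 is above its control with siVRK1 in both lines, AKR1C3 and PIR in ES2 are high with siCtrl only, and TXNRD1, GCLM, SRXN1 and NQO1 are highest of the A2780 groups with luteolin.

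A test of the difference between the lines (ES2 effect minus A2780 effect) was passed by 18 of 31 genes for siVRK1, 6 in the positive direction and 12 in the negative, against 20.7% and 13.2% of 14328 genes (33.9% in either). Without AKR1B10 it was 6 and 11 of 30. Median-of-ratios scaling made this 4 and 14, and the all-gene split 2255 and 2762 in place of 2962 and 1897. The fall was deeper in ES2 for AKR1C3 (-1.60 ± 0.21), NQO1 (-0.62 ± 0.0540), PIR (-0.61 ± 0.13) and NFE2L2 (-0.54 ± 0.0831), and the HMOX1 rise was larger there (0.70 ± 0.12, limma adjusted p = 4.03e-05). PRDX6 differed by -0.47 ± 0.0380 (limma adjusted p = 8.22e-08) and GPX1 by -0.53 ± 0.0502. For GCLC, TXNRD1, SRXN1, ME1 and OSGIN1 the difference did not pass, with values of -0.15 ± 0.17, -0.070 ± 0.0858, -0.12 ± 0.0872, -0.15 ± 0.0829 and -0.0055 ± 0.24, which does not show that the effects were alike. VRK1 itself was reduced more in ES2, by a difference of -1.47 ± 0.16 (limma adjusted p = 1.08e-06), and the part of this in the other differences was not tested. Leaving out single libraries ended the call of TKT in 8 of 12 omissions (limma adjusted p = 0.0523 to 0.119), of GSTP1 in 8 (0.0507 to 0.114) and of AKR1B1 in 7 (0.0533 to 0.108), in each case for libraries of all 4 groups. That of IDH1 was lost without ES2 siCtrl library 1 (0.0581) and after median-of-ratios scaling (limma adjusted p = 0.0532), which also ended that of GSTP1 (0.857).

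**Figure D3:**
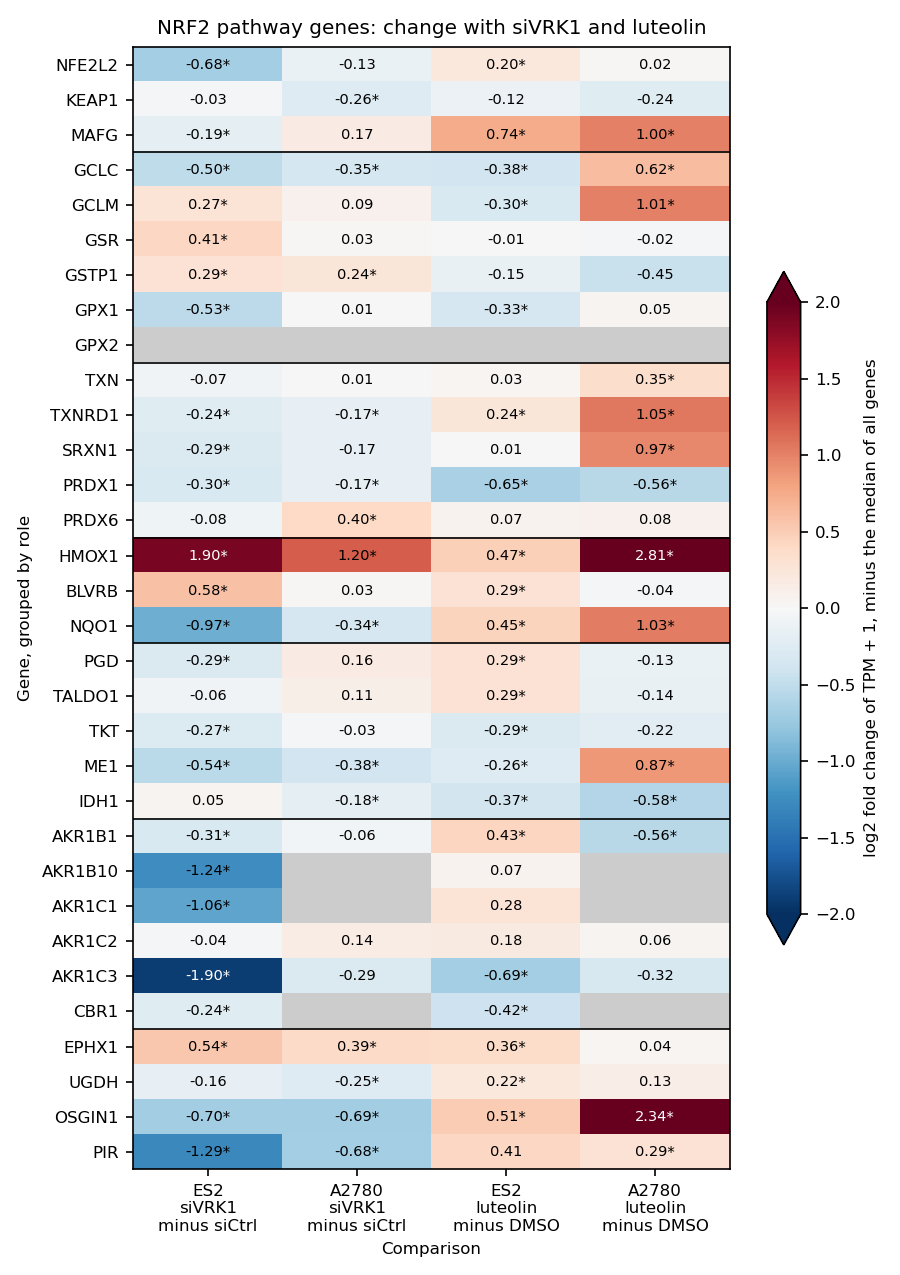
Change of each of the 32 genes (rows, grouped by role) in the 4 treatment comparisons (columns), as log2 fold change of TPM + 1 minus the median of all genes. A star marks a call in the same direction under the deposited, median-of-ratios and quantile scalings, and grey cells were not tested. HMOX1 is the darkest red cell of the siVRK1 columns, and OSGIN1 and HMOX1 are the darkest of the A2780 luteolin column.

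Luteolin was followed by higher levels of several classical NRF2 targets in A2780, and by a mixed pattern in ES2. In A2780, 18 of 28 tested genes were higher and 4 lower than with DMSO, against 45.6% and 19.9% of 13012 genes (65.5% in either direction). Here the all-gene median was 0.22 as deposited and 0.021 after median-of-ratios scaling, under which 11 genes of the list were higher and 8 lower, and 4241 and 4213 of all genes in place of 5938 and 2585. Quantile normalization gave 21 higher and 4 lower, and 3697 and 4256 of all genes. Under all of these, 11 were higher (MAFG, GCLC, GCLM, TXN, TXNRD1, SRXN1, HMOX1, NQO1, ME1, OSGIN1 and PIR) and 3 lower (PRDX1, IDH1 and AKR1B1). In ES2, 13 of 31 were higher and 10 lower, against 22.6% and 25.8% of 12507 genes (48.4% in either direction), and 12 and 9 under all scalings. The median fitted change of the tested genes was 0.071 in ES2 and 0.27 in A2780, beside -0.0033 and 0.22 for all genes. Of the 28 genes tested in both lines, 10 were called higher in both, 3 lower in both and 5 in opposite directions, against 15.5%, 10.5% and 8.13% of the 11304 genes tested in both.

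Other measures moved with luteolin. Mitochondrial mRNAs made up 7.78% ± 0.791 of TPM with luteolin and 4.57% ± 0.564 with DMSO in ES2, and 10.5% ± 1.40 and 7.10% ± 1.03 in A2780 (SD, n = 3 each). With the 13 mitochondrial mRNAs removed, 14 genes of the list were higher and 10 lower in ES2, and 20 and 4 in A2780. Of all genes, 3349 were then higher and 2767 lower in ES2, in place of 2826 and 3228, and 6624 and 2359 in A2780. Retained-intron transcripts held 4.54% ± 0.156 of TPM with luteolin and 4.33% ± 0.0322 with DMSO in ES2, and 5.23% ± 0.158 and 3.39% ± 0.114 in A2780. From protein-coding transcripts alone, 13 genes of the list were higher and 11 lower in ES2, and 17 and 4 in A2780, beside 2742 and 3231 of all genes in ES2 and 4741 and 2988 in A2780. In ES2 the summed endothelial markers, 3 of 5 of them below 1 TPM with luteolin and 4 with DMSO, were at 9.79 to 10.8 TPM with luteolin and 36.2 to 40.0 TPM with DMSO, through CDH5. The summed fibroblast markers were at 17.0 to 22.2 TPM with luteolin and 112 to 133 TPM with DMSO, through COL1A1, with COL1A2, LUM and PDGFRB below 1 TPM in both groups. In A2780 they were at 42.3 to 48.9 TPM with luteolin and 57.3 to 66.2 TPM with DMSO. Of the fibroblast markers tested, 1 of 3 was called higher and 1 lower in ES2, and 1 of 6 higher and 3 lower in A2780. DCN and THY1 were below 1 TPM in every ES2 DMSO library, but not in every ES2 luteolin library. The ovarian carcinoma markers in ES2, nearly all of it keratins, summed to 705 to 775 TPM with luteolin and 952 to 992 TPM with DMSO. Of 5 tested there, 2 were called lower and 0 higher. The part of these markers in the results was not tested.

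HMOX1 was again the most changed gene of the list in A2780, at 166, 183 and 218 TPM with luteolin, against 20.9, 24.05 and 21.9 TPM with DMSO (2.81 ± 0.0919, limma adjusted p = 9.18e-11). In ES2 the luteolin libraries were at 25.8, 23.6 and 25.1 TPM, against 18.1, 16.7 and 18.2 TPM with DMSO, a smaller rise of 0.47 ± 0.0692 (limma adjusted p = 0.000136). Neither line showed overlap. NQO1 was at 213, 209 and 231 TPM in ES2 luteolin, against 162, 165 and 152 TPM in DMSO, and at 763, 722 and 711 TPM in A2780 luteolin, against 306, 300.5 and 320.2 TPM in DMSO. It rose in both, by 0.45 ± 0.0421 and 1.03 ± 0.0376. OSGIN1 was at 16.0, 14.5 and 20.6 TPM in A2780 luteolin, against 2.17, 2.21 and 1.78 TPM in DMSO (2.34 ± 0.17, limma adjusted p = 6.16e-08). In ES2 its luteolin libraries at 7.56, 4.96 and 7.93 TPM overlapped those of DMSO at 5.59, 3.497 and 4.38 TPM, and the call (limma adjusted p = 0.0212) was lost without luteolin library 1 or 3 or DMSO library 2 or 3, at 0.0518 to 0.0914. PIR rose in both lines, to 6.10 ± 0.659 against 4.37 ± 0.759 TPM in ES2 and to 53.7 ± 5.15 against 37.5 ± 1.38 TPM in A2780, in ES2 not after quantile normalization (limma adjusted p = 0.0646).

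Of the 3 regulators, MAFG changed most. It was at 43.3, 41.0 and 48.1 TPM in ES2 luteolin, against 25.0, 28.1 and 24.9 TPM in DMSO, and at 52.5, 53.9 and 54.6 TPM in A2780 luteolin, against 22.1, 22.0 and 23.5 TPM in DMSO. It rose in both lines without overlap (0.74 ± 0.0678 and 1.001 ± 0.0536). NFE2L2 averaged 43.9 ± 4.17 TPM with luteolin and 38.0 ± 0.356 TPM with DMSO in ES2, a call (limma adjusted p = 0.0282) lost in 5 of the 6 single-library omissions, those of luteolin libraries 1 and 3 and of each DMSO library (limma adjusted p = 0.0534 to 0.113). In A2780 it averaged 57.1 ± 2.23 TPM with luteolin and 48.2 ± 2.09 TPM with DMSO, a higher call as deposited (limma adjusted p = 0.00111) that median-of-ratios scaling ended (0.751), and 0.023 ± 0.0508 relative to the all-gene median. KEAP1 passed in neither line as deposited, at 30.8 ± 1.45 against 33.5 ± 1.88 TPM in ES2 and 85.9 ± 4.51 against 87.6 ± 4.75 TPM in A2780, where median-of-ratios scaling made it a lower call (limma adjusted p = 0.00201).

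Glutathione synthesis genes went in opposite directions in the lines. GCLM was at 34.6, 32.04 and 33.5 TPM in ES2 luteolin, against 38.8, 41.4 and 44.3 TPM in DMSO, and at 28.96, 34.1 and 36.4 TPM in A2780 luteolin, against 12.3, 13.5 and 14.8 TPM in DMSO. It fell in ES2 (-0.30 ± 0.0789, limma adjusted p = 0.00696) and rose in A2780 (1.01 ± 0.11, limma adjusted p = 6.11e-07), with no overlap in either. GCLC did likewise, with 12.4, 15.9 and 14.4 TPM in ES2 luteolin, against 18.9, 19.8 and 17.6 TPM in DMSO, and 20.5, 21.1 and 23.96 TPM in A2780 luteolin, against 10.7, 10.3 and 14.8 TPM in DMSO (-0.38 ± 0.11 and 0.62 ± 0.12). GPX1 fell in ES2 to 271 ± 5.91 TPM with luteolin, against 341 ± 4.80 TPM with DMSO (-0.33 ± 0.0311). Its higher call in A2780 was lost after median-of-ratios scaling (limma adjusted p = 0.552). GSTP1 was lower in both lines as deposited (-0.15 and -0.45) but not called in either after quantile normalization.

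Thioredoxin reductase and sulfiredoxin rose mainly in A2780. TXNRD1 was at 669.5, 707 and 631 TPM in ES2 luteolin, against 547, 595 and 559 TPM in DMSO, and at 279.7, 302 and 320.2 TPM in A2780 luteolin, against 121, 114 and 138 TPM in DMSO (0.24 ± 0.0423 and 1.05 ± 0.0701). SRXN1 was at 106, 113 and 120.3 TPM in A2780 luteolin, against 47.7, 46.7 and 53.4 TPM in DMSO (0.97 ± 0.0640, limma adjusted p = 1.20e-08). In ES2 SRXN1 overlapped, at 61.0, 54.6 and 65.8 TPM with luteolin and 59.5, 61.7 and 58.6 TPM with DMSO, and did not pass. TXN rose in A2780 (659.7 ± 43.9 against 444 ± 3.13 TPM) and did not pass in ES2 as deposited (839 ± 68.3 against 819 ± 5.85 TPM). PRDX1, the most abundant gene of the list in the controls, fell in both lines, to 765, 740.2 and 726 TPM in ES2 luteolin, against 1129, 1185 and 1198 TPM in DMSO, and to 1056, 1110.1 and 1062 TPM in A2780 luteolin, against 1349, 1373 and 1359 TPM in DMSO. The changes were -0.65 ± 0.0324 and -0.56 ± 0.0316, without overlap. PRDX6 was called higher in neither line under all scalings (0.071 and 0.083).

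The NADPH genes differed by line as well. ME1 was at 11.6, 11.8 and 11.6 TPM in ES2 luteolin, against 14.0, 14.4 and 14.4 TPM in DMSO, and at 12.8, 13.2 and 13.3 TPM in A2780 luteolin, against 5.46, 5.43 and 5.98 TPM in DMSO. It fell in ES2 (-0.26 ± 0.0629, limma adjusted p = 0.00382) and rose in A2780 (0.87 ± 0.0771, limma adjusted p = 1.12e-07), each without overlap. PGD and TALDO1 rose in ES2, to 169 ± 3.12 against 139 ± 2.35 TPM and to 249.6 ± 10.2 against 204 ± 5.80 TPM, while TKT fell to 267 ± 10.1 against 327 ± 6.46 TPM. In A2780 these 3 genes did not pass in the unshifted fit, at -0.13, -0.14 and -0.22 relative to the all-gene median. They were all called lower after median-of-ratios scaling and higher after quantile normalization, so no direction is given. IDH1 fell in both lines (50.2 ± 2.31 against 65.3 ± 4.15 TPM in ES2 and 55.0 ± 1.04 against 71.3 ± 7.02 TPM in A2780). AKR1B1, aldose reductase, rose in ES2 to 269, 268 and 272 TPM with luteolin, against 201, 199.5 and 199.8 TPM with DMSO, and fell in A2780 to 176, 184 and 163 TPM, against 218, 222 and 223 TPM (0.43 ± 0.0323 and -0.56 ± 0.0539). AKR1C3 and CBR1 fell in ES2 (3.09 ± 0.227 against 5.61 ± 0.586 TPM and 73.3 ± 3.87 against 98.4 ± 5.92 TPM), and the summed AKR1C genes gave a fitted -0.32 ± 0.10 there (limma adjusted p = 0.0176). BLVRB, EPHX1 and UGDH were called higher in ES2 (0.29, 0.36 and 0.22), and each call was lost without some single library, at limma adjusted p of 0.0508 to 0.0796. These libraries were luteolin 2 and DMSO 2 for BLVRB, luteolin 2 and DMSO 3 for EPHX1, and luteolin 3, DMSO 1 and DMSO 3 for UGDH. In A2780 BLVRB, EPHX1 and UGDH were also called higher as deposited, but not under all scalings. They averaged 160 ± 1.28, 86.4 ± 5.59 and 46.6 ± 3.40 TPM there with luteolin, against 141 ± 1.70, 72.1 ± 4.47 and 36.6 ± 3.77 TPM with DMSO. AKR1B10, AKR1C1 and AKR1C2 did not pass in ES2 (0.074 ± 0.15, 0.28 ± 0.22 and 0.18 ± 0.26).

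Tested directly, the luteolin effect differed between the lines for 19 of 31 genes, 3 in the positive direction and 16 in the negative, against 14.7% and 35.8% of 14328 genes (50.5% in either). The all-gene median of this difference was -0.20 as deposited and -0.034 after median-of-ratios scaling, which gave 5 and 13, and 3472 and 3641 of all genes in place of 2104 and 5125. HMOX1 differed by -2.36 ± 0.12, OSGIN1 by -1.85 ± 0.24, GCLM by -1.34 ± 0.14, ME1 by -1.16 ± 0.0829 and GCLC by -1.02 ± 0.17. The limma adjusted p-values were 2.13e-12, 1.14e-06, 2.69e-08, 1.18e-10 and 5.65e-06. SRXN1 and TXNRD1 differed by -0.98 ± 0.0872 and -0.84 ± 0.0858, and AKR1B1 by 0.97 ± 0.0616 in the positive direction. Among the genes with opposite calls in the lines as deposited, ME1 and GCLM hold the motif in their windows. The windows of GCLC, GPX1 and AKR1B1 do not hold it, and sequence outside them was not searched. The promoter sequences of ME1 and GCLM are printed here in full before the start, 250 bases on the minus strand with the match in capitals.
ME1, chr6:83431052-83431301: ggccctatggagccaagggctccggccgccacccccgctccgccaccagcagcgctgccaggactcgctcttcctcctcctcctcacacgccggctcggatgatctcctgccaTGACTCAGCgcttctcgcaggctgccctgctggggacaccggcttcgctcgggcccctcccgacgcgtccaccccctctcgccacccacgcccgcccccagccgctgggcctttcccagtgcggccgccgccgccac
GCLM, chr1:93909431-93909680: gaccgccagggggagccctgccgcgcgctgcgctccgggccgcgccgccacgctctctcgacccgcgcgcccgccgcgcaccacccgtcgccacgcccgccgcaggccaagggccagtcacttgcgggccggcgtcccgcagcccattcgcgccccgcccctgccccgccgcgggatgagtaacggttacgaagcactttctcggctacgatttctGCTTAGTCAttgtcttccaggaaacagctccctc
Both genes carry a match, and so do GSTP1 and IDH1. Relative to the all-gene median of -0.20, the luteolin differences of GSTP1 and IDH1 were 0.28 ± 0.0462 and 0.19 ± 0.0951. The test uses the unshifted fit, in which neither passed as deposited. That of GSTP1 did pass after median-of-ratios scaling (limma adjusted p = 0.00236).

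**Figure D4:**
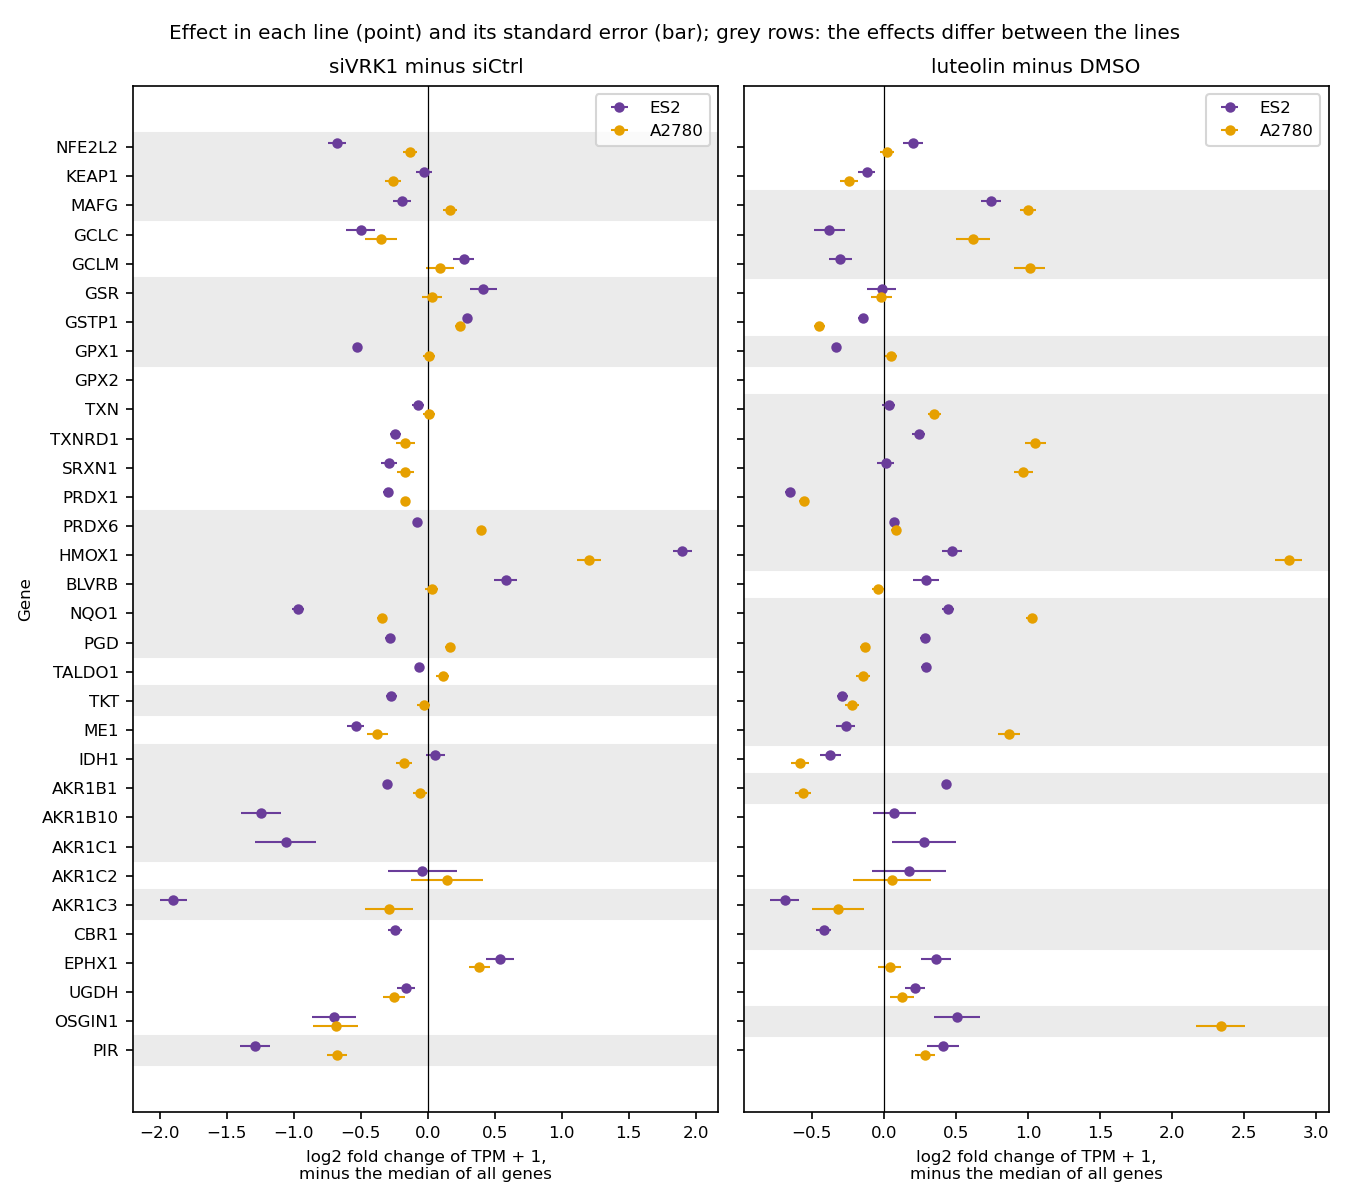
Effect of siVRK1 (left) and of luteolin (right) on each gene in ES2 and A2780, as log2 fold change of TPM + 1 minus the median of all genes, with the standard error of the fit as a bar. Grey rows mark genes whose effects differed between the lines by the unshifted test, such as HMOX1, GCLM and ME1 under luteolin, where the ES2 and A2780 points lie far apart.

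The 2 kinds of control were themselves unlike in these genes. With siCtrl, 22 of 31 tested genes were higher than with DMSO in ES2 and 4 lower, against 34.7% and 21.5% of 12507 genes (56.2% in either direction), and without AKR1B10 21 of 30 were higher. In A2780, 19 of 28 were higher and 6 lower, against 47.2% and 10.9% of 13012 genes (58.1% in either direction). The A2780 all-gene median was 0.24 as deposited and 0.015 after median-of-ratios scaling, which gave 10 higher and 9 lower, and 3044 and 3368 of all genes in place of 6144 and 1412. In ES2 it gave 3570 and 3411 of all genes in place of 4339 and 2692. Retained-intron transcripts held 4.49% ± 0.114 of TPM with siCtrl and 3.39% ± 0.114 with DMSO in A2780, and 4.10% ± 0.0742 and 4.33% ± 0.0322 in ES2 (SD, n = 3 each). The fibroblast markers summed to 37.2 to 41.0 TPM with siCtrl and 57.3 to 66.2 TPM with DMSO in A2780, and to 82.8 to 98.3 and 112 to 133 TPM in ES2, where the leukocyte list, mostly CD68, was at 36.0 to 42.2 and 56.8 to 67.2 TPM. Of the fibroblast markers tested, 1 of 6 was called higher and 1 lower in A2780, and 0 of 3 higher and 2 lower in ES2. Their part in these differences was not tested. These comparisons share the siCtrl libraries with the siVRK1 comparisons and the DMSO libraries with the luteolin comparisons, and what else differed between siCtrl and DMSO libraries is not given in the sources used here.

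In ES2, AKR1C3 was at 6.15 ± 0.745 TPM with siVRK1, 25.7 ± 1.63 TPM with siCtrl, 3.09 ± 0.227 TPM with luteolin and 5.61 ± 0.586 TPM with DMSO. PIR was at 9.10 ± 0.947, 23.7 ± 1.16, 6.10 ± 0.659 and 4.37 ± 0.759 TPM in the same order. For both genes the siCtrl libraries were the highest of the 4 groups. The changes with siCtrl relative to DMSO were 1.93 ± 0.10 and 2.13 ± 0.11. NFE2L2 was also highest with siCtrl in ES2, with 38.5 ± 2.28 TPM for siVRK1, 62.3 ± 2.97 TPM for siCtrl and 38.0 ± 0.356 TPM for DMSO. In A2780 HMOX1 was at 168 ± 4.85 TPM with siVRK1, 76.5 ± 6.91 TPM with siCtrl, 189 ± 26.6 TPM with luteolin and 22.3 ± 1.62 TPM with DMSO, so its siCtrl level was already above DMSO (1.49 ± 0.0919). In ES2 HMOX1 was slightly lower with siCtrl than with DMSO (-0.31 ± 0.0692, limma adjusted p = 0.012), a call lost without siCtrl library 3 (0.0515). Under all scalings, MAFG, GCLC, NQO1, ME1, OSGIN1 and PIR were higher with siCtrl than with DMSO in both lines, and GSTP1 and EPHX1 lower in both. Summed over the 32 genes, TPM was 5447 ± 21.5 with siVRK1, 6229 ± 32.8 with siCtrl, 5209 ± 41.9 with luteolin and 5496 ± 64.1 with DMSO in ES2. In A2780 the sums were 5927 ± 110 with siVRK1, 6188 ± 62.8 with siCtrl, 6614 ± 122 with luteolin and 5762 ± 39.5 with DMSO (SD, n = 3 each).

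TXNRD1 is transcribed from alternative starts, and both of its windows hold the motif. All 4 transcripts with at least 10% of its TPM in some group start, in GENCODE release 29 on GRCh38, between 104286682 and 104287368 on chromosome 12. The second window spans 104286782 to 104287081: ENST00000503506 starts before it, ENST00000526691 and ENST00000526580 start inside it, and ENST00000524698 starts after it. The stretch with the match in that window, printed above, thus lies downstream of the starts of ENST00000503506 and ENST00000526691. The share of ENST00000503506 in TXNRD1 was 29.4% ± 1.01 with siVRK1 and 34.7% ± 0.746 with siCtrl in ES2, and 31.8% ± 0.958 and 41.2% ± 1.65 in A2780 (SD, n = 3 each). ENST00000526691 held 30.9% ± 0.927 with siVRK1 and 22.5% ± 1.44 with siCtrl in ES2, and 35.0% ± 2.53 and 22.8% ± 0.837 in A2780. The siVRK1 and siCtrl ranges of both shares did not overlap in either line, and their levels moved in opposite directions. ENST00000503506 averaged 129.6 TPM with siVRK1 and 181 TPM with siCtrl in ES2, and 69.0 and 106 TPM in A2780. ENST00000526691 averaged 136 and 118 TPM in ES2, and 75.9 and 58.6 TPM in A2780. With luteolin ENST00000503506 was at 317 ± 10.2 TPM, against 237 ± 10.2 TPM with DMSO in ES2, and at 129 ± 7.84 against 62.9 ± 1.97 TPM in A2780. These transcripts overlap, so their shares are kallisto's division of reads and were not tested.

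**Figure D5:**
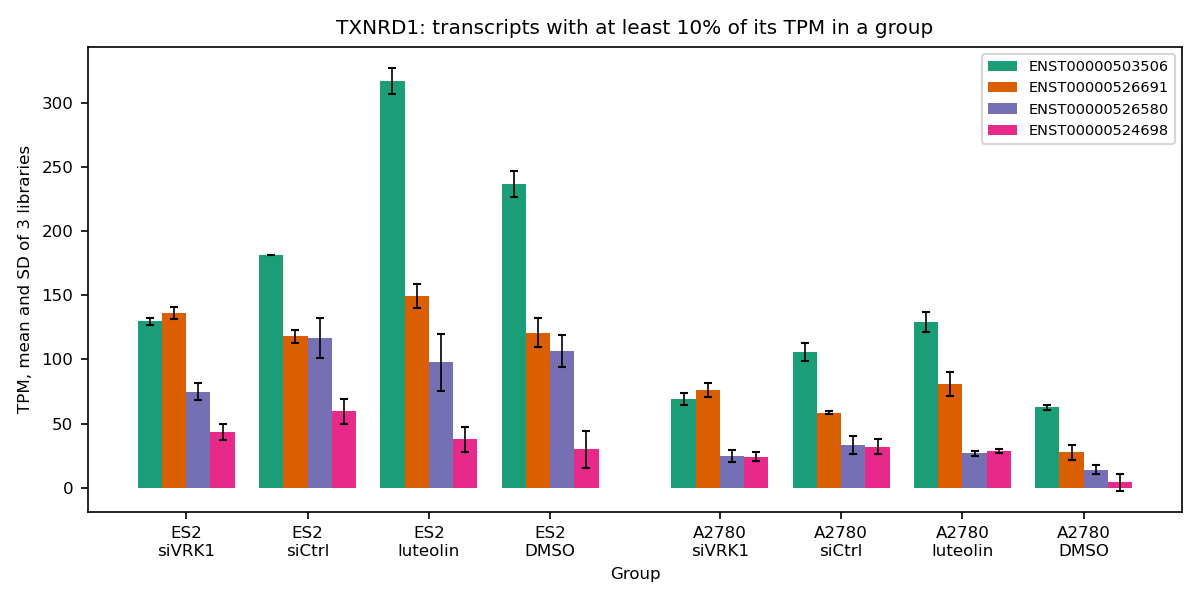
TPM of the 4 TXNRD1 transcripts with at least 10% of the gene's TPM in a group, as the mean (bars) and SD of 3 libraries in each of the 8 groups. ENST00000503506 is highest in every luteolin and control group, while in the siVRK1 groups ENST00000526691 is slightly above it.

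Genes of the same pathways outside the list were counted from 4 further lists. With siVRK1, these counts stand beside 28.0% lower and 26.8% higher of all genes tested in ES2, and 27.0% lower and 13.8% higher in A2780. Of NRF2 regulators such as the adaptor SQSTM1 and the repressor BACH1, 7 of 14 tested were lower and 3 higher in ES2, and 2 of 13 lower and 1 higher in A2780, where median-of-ratios scaling gave 2 lower and 3 higher. SQSTM1, which sequesters KEAP1 and is itself an NRF2 target, was at 83.1, 100.3 and 100.9 TPM in ES2 siVRK1, against 173, 176 and 171 TPM in siCtrl, and at 60.0, 66.2 and 46.8 TPM in A2780 siVRK1, against 127, 127 and 110.5 TPM in siCtrl. It fell in both lines without overlap (-0.87 ± 0.0850 and -0.996 ± 0.11). Of other NRF2 targets, 12 of 22 were lower and 3 higher in ES2, and 7 of 19 lower and 4 higher in A2780 (6 and 5 after median-of-ratios scaling). TRIM16, a ubiquitin ligase, fell in ES2 to 16.4 ± 1.79 TPM with siVRK1, against 52.3 ± 1.63 TPM with siCtrl (-1.62 ± 0.0911), the multidrug exporter ABCC3 to 2.57 ± 0.840 against 11.1 ± 1.13 TPM, and in A2780 MGST1, a microsomal glutathione transferase, to 42.5 ± 2.76 against 84.1 ± 4.29 TPM. Of other pentose phosphate and NADPH genes, 6 of 16 were lower and 7 higher in ES2, and 4 of 15 lower and 2 higher in A2780 (2 and 2 after median-of-ratios scaling). RPIA, ribose-5-phosphate isomerase, rose in both (74.9 ± 1.39 against 48.1 ± 1.88 TPM in ES2 and 81.3 ± 2.42 against 57.1 ± 0.982 TPM in A2780). Of other redox enzymes, 7 of 18 were lower and 7 higher in ES2, and 6 of 18 lower and 2 higher in A2780 (4 and 6 after median-of-ratios scaling). Catalase (CAT), mitochondrial thioredoxin reductase TXNRD2 and GSTZ1 were lower in both lines, at -0.99, -1.07 and -1.65 in ES2 and -0.87, -0.66 and -0.69 in A2780.

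With luteolin, 22.6% of all genes tested were higher and 25.8% lower in ES2, and 45.6% and 19.9% in A2780. Of the regulators, 3 of 14 were higher and 5 lower in ES2, and 9 of 13 higher and 3 lower in A2780. SQSTM1 was at 151, 139 and 173 TPM in ES2 luteolin, against 79.4, 70.1 and 75.7 TPM in DMSO, and at 223, 212 and 188 TPM in A2780 luteolin, against 47.5, 51.7 and 54.1 TPM in DMSO (1.03 ± 0.0850 and 1.78 ± 0.11). Other targets were higher in 11 of 22 cases and lower in 4 in ES2, and higher in 14 of 19 and lower in 0 in A2780 (9 and 1 after median-of-ratios scaling). SLC7A11, the cystine importer, rose in both lines, to 15.5 ± 0.436 against 3.19 ± 0.127 TPM in ES2 and 13.2 ± 0.261 against 5.13 ± 1.01 TPM in A2780. FTH1, the ferritin heavy chain that stores the iron set free from heme, rose in A2780 to 8666, 8379.8 and 8822 TPM with luteolin, against 3220.2, 3239 and 3271 TPM with DMSO (1.19 ± 0.0375), and ABHD4 to 32.02 ± 4.19 against 4.26 ± 1.26 TPM. Of other pentose phosphate and NADPH genes, 4 of 16 were higher and 5 lower in ES2, and 3 of 15 higher and 7 lower in A2780 (3 and 11 after median-of-ratios scaling). PGLS, the lactonase of the pentose phosphate pathway, rose in ES2 (0.69 ± 0.0569), beside the rises of PGD and TALDO1 there, and TIGAR rose in A2780 (1.03 ± 0.16). Of other redox enzymes, 9 of 18 were higher and 5 lower in ES2, and 4 of 18 higher and 9 lower in A2780, where median-of-ratios scaling gave 0 and 10. MSRB1, a methionine sulfoxide reductase, fell in both lines (-0.61 and -1.24).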

How the data were processed

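RNA sequencing libraries of ES2 and A2780 cells were grouped by the titles in the labels into 8 groups of 3. Per the labels' protocols, a spin-column kit gave the RNA, and library preparation and sequencing were done commercially. FastQC, kallisto and the build hg19 are named in the submitters' processing notes. The authors deposited TPM values per transcript, which keep no sequencing depth, so no counting error is given.

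The table held 193845 lines for 191887 distinct transcripts. Of these, 19 with more than 1 symbol and 9542 with none were left out (0.514% to 1.03% of TPM per library). TPM was summed per symbol. Genes at 1 TPM or more in at least 3 libraries of a fit were tested on log2(TPM + 1) with limma 3.58.1 in R 4.3.3, with a trended variance and Benjamini-Hochberg adjustment over all genes tested at a threshold of 0.05. Fits within a line used its 12 libraries, and fits between lines all 24. A fold change on the log2(TPM + 1) scale understates the change of low genes. The scripts were tested on simulated data.

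The listed genes, the further lists and the tests were chosen with earlier results of these data known. Besides all 32 listed genes and VRK1, VRK2 and VRK3, each treatment comparison names from each further list up to 3 genes past the threshold with the largest change, a mean of 5 TPM or more in the higher group and no overlap between groups. A gene shown in a line where this rule does not name it was added after its values were seen. Some genes of the further and marker lists are counted but not reported here by name. Alternatives were pseudocounts of 0.1 and 5, no filter, a 5 TPM filter, median-of-ratios scaling, quantile normalization, removal of the 13 mitochondrial mRNAs, protein-coding transcripts alone, the AKR1C genes summed, fits on the compared groups alone or on both lines together, a replicate block and leaving out each library. Promoter sequences are from RefSeq (GRCh38.p14), and transcript types and starts from GENCODE release 29, which matched 168749 transcripts.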

Additional observations from a re-analysis of the deposited data

Results flagged for a closer look

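Each gene named here was singled out because its effect differed between ES2 and A2780 by a test of the difference itself (limma with Benjamini-Hochberg adjustment, threshold 0.05). Values are the ES2 effect minus the A2780 effect, in log2 units of TPM + 1 relative to the all-gene median. The test itself used the unshifted values. For siVRK1, higher values in ES2 were found for KEAP1 (0.24), GSR (0.39), GSTP1 (0.059), HMOX1 (0.70), BLVRB (0.56) and IDH1 (0.24). Lower values in ES2 were found for NFE2L2 (-0.54), MAFG (-0.35), GPX1 (-0.53), PRDX6 (-0.47), NQO1 (-0.62), PGD (-0.44), TKT (-0.23), AKR1B1 (-0.24), AKR1B10 (-1.26), AKR1C1 (-1.06), AKR1C3 (-1.60), PIR (-0.61) and VRK1 (-1.47). After median-of-ratios scaling the differences of GSTP1 and IDH1 no longer passed (limma adjusted p = 0.857 and 0.0532). AKR1C1 was near 0 in A2780, so its difference rests on ES2. AKR1B10 reached 1 TPM only in the ES2 siCtrl libraries, so passing the level filter fixed the sign of its value, which is given as a description.

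For luteolin, higher values in ES2 were found for PGD (0.39), TALDO1 (0.41), AKR1B1 (0.97) and VRK1 (0.65). Lower values in ES2 were found for MAFG (-0.28), GCLC (-1.02), GCLM (-1.34), GPX1 (-0.40), TXN (-0.34), TXNRD1 (-0.84), SRXN1 (-0.98), PRDX1 (-0.12), PRDX6 (-0.037), HMOX1 (-2.36), NQO1 (-0.60), TKT (-0.095), ME1 (-1.16), AKR1C3 (-0.40), CBR1 (-0.37) and OSGIN1 (-1.85). The differences of PRDX1, PRDX6 and TKT no longer passed after median-of-ratios scaling (limma adjusted p = 0.0911, 0.607 and 0.167), and that of CBR1 rests on ES2, since CBR1 is listed at 0 in most A2780 libraries. That of AKR1C3 was lost without A2780 luteolin library 3, A2780 DMSO library 2 or ES2 DMSO library 3 (limma adjusted p = 0.0740, 0.0699 and 0.0573). Groups held 3 libraries, too few to test a single library as an outlier.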

How the results depend on the processing

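Under every alternative, the number of listed genes called in each comparison stayed within 1.5 times the reported number. With single libraries left out it was 21 to 24 for siVRK1 in ES2, 15 to 17 for siVRK1 in A2780, 19 to 22 for luteolin in ES2 and 20 to 22 for luteolin in A2780. It was 14 to 18 for the siVRK1 difference between lines, 18 to 20 for the luteolin difference, 27 to 29 for ES2 against A2780 controls, 24 to 25 for siCtrl against DMSO in ES2 and 20 to 25 in A2780. Scaling decided most changes of direction, here as fitted log2 values. With median-of-ratios scaling, A2780 luteolin gave GSR -0.0186, BLVRB -0.0415, PGD -0.133, TALDO1 -0.148 and VRK3 -0.00723, ES2 against A2780 controls gave PRDX1 0.0418, and A2780 siCtrl against DMSO gave KEAP1 -0.0857, GPX1 -0.100, PRDX1 -0.173 and BLVRB -0.0508. With quantile normalization, ES2 siVRK1 gave PRDX6 0.0098, ES2 luteolin GSTP1 0.0403, and A2780 luteolin TKT 0.242, VRK2 -0.249 and VRK3 -0.00766. From protein-coding transcripts alone, ES2 siVRK1 gave PRDX6 0.0492. The cause was not tested beyond the shift of the all-gene median that median-of-ratios scaling removes. Across all genes tested, libraries with the same replicate number did not deviate together (correlations of -0.0532 to 0.0428). The main fits used no pairing, and shared deviations in fewer genes were not tested. With a replicate block, 25 listed genes were called for siVRK1 in ES2 (24 with its 2 unnumbered libraries in the other order), 16 for siVRK1 in A2780, 23 for luteolin in ES2, 22 for luteolin in A2780, 16 and 19 for the siVRK1 and luteolin differences, 28 between control groups of the lines, and 26 and 22 for siCtrl against DMSO in ES2 and A2780. TPM gives no depth, so what low counts limit could not be measured.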
